A study of Caenorhabditis elegans with 2 samples.

Results

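CDC-48, called p97 or VCP in mammals, is a hexameric ATPase of the AAA family (ATPases associated with diverse cellular activities). It pulls ubiquitin-marked proteins out of complexes, membranes and chromatin so that the proteasome can degrade them, and its best known cofactor pair, UFD-1 and NPL-4, recognises the ubiquitin chain. In *C. elegans*, CDC-48 with UFD-1 and NPL-4 is known for its roles in DNA replication and in degradation of proteins from the endoplasmic reticulum. The worm has a pair of closely related CDC-48 genes, cdc-48.1 and cdc-48.2, a more distant relative, cdc-48.3, whose product is known to inhibit the Aurora B kinase AIR-2, and duplicated NPL-4 genes. The 6 genes cdc-48.1, cdc-48.2, cdc-48.3, ufd-1, npl-4.1 and npl-4.2, out of 19973 protein-coding genes of the nuclear genome, were examined for binding of the chromatin remodeller ISW-1. The set was chosen by the height of the peak at cdc-48.1, which had one of the largest signal values in these lists, and the other 5 genes were taken as its paralogs and cofactors. The height of the cdc-48.1 peak is therefore a description and not a finding.

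ISW-1 is the ATPase subunit of ISWI-type nucleosome remodelling complexes. It was mapped by ChIP-seq with an anti-GFP antibody in whole animals of strain OP181, which carries the integrated transgene wgIs181 (isw-1 fused to TY1, EGFP and 3xFLAG, with an unc-119(+) copy) in an unc-119(ed3) background. Both biological replicates were L1 larvae of 6 hours, synchronised by bleaching and starvation, so there was 1 condition and no other genotype to compare. Fewer cells with binding and weaker binding per cell cannot be told apart in chromatin of whole animals, and the tagged protein came from the transgene of this 1 strain. The replicates' own thresholded lists held 2090 peaks for replicate 1 and 1756 peaks for replicate 2, the conservative list derived from both held 2143, and the other thresholded list of both held 2210. Each has a longer ranked list, in which every peak carries a global irreproducible discovery rate (IDR), small where repeated rankings place a peak alike. The lists give no read counts, so the sequencing depth is unknown. The promoter window reached from 1000 bp before the outermost annotated start of a gene, called the gene start below, to 500 bp after it, and a gene with a summit in this window was called bound. Signal values are those given by the authors in the lists and are comparable only within a list.

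The sequences in front of the gene starts are shown for the genes whose contrast the results turn on: cdc-48.1 with its high peak, cdc-48.2 without one in that place, and the npl-4 pair, whose upstream sequences are the same. Each is the 300 bases before the start, 5′ to 3′ on the gene's own strand, from the RefSeq genome of build WBcel235 (ce11). The cdc-48.1 stretch is II:10563408-10563707 on the minus strand, the cdc-48.2 stretch is II:8138196-8138495 on the plus strand, and the npl-4.1 stretch is II:5631051-5631350 on the plus strand. The npl-4.2 stretch, II:5622589-5622888 on the plus strand, has the same 300 bases as npl-4.1. Capitals mark TATAAA on either strand, a match by letters alone.
cdc-48.1: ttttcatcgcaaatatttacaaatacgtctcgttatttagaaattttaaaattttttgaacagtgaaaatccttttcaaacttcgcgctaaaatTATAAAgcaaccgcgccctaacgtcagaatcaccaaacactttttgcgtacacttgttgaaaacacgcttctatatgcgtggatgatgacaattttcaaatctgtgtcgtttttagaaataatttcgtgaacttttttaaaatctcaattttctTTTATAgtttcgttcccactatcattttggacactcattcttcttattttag
cdc-48.2: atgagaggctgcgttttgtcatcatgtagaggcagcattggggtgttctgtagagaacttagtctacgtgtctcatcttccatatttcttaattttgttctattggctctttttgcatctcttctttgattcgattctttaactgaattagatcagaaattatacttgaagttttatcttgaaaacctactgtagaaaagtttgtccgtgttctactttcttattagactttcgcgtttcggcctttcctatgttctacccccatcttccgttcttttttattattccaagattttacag
npl-4.1: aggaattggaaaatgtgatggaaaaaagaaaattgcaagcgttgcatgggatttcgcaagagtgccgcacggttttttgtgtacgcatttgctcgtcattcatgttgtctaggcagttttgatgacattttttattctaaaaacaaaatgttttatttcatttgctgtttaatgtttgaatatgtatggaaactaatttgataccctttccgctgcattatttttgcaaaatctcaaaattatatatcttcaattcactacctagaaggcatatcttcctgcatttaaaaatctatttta
The cdc-48.1 peak lay mostly inside the stretch shown for that gene. The stretch in front of cdc-48.3 is not shown, and that of ufd-1 reaches into the neighbouring gene F19B6.1, which ends 85 bp away.

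Of the 6 genes, 1 had a promoter summit in the conservative thresholded list, namely cdc-48.1. Across all protein-coding genes of that list 10% were bound. The count was also 1 of 6 in the other thresholded list (10.2% of all genes) and in replicate 2's own list (8.60%). In replicate 1's own list cdc-48.2 joined cdc-48.1, so that 2 of 6 were bound (9.82%). The same 2 genes had a promoter summit in each of the 4 ranked lists, in which 24.5% of all genes did in the conservative list, 24.0% in the other list, 32.3% in replicate 1 and 44.9% in replicate 2. The other 4 genes, cdc-48.3, ufd-1, npl-4.1 and npl-4.2, had no summit in the window in any of the 8 lists. With 6 genes, 1 of them taken for its peak, nothing about the set was read from these shares.

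**Figure D1:**
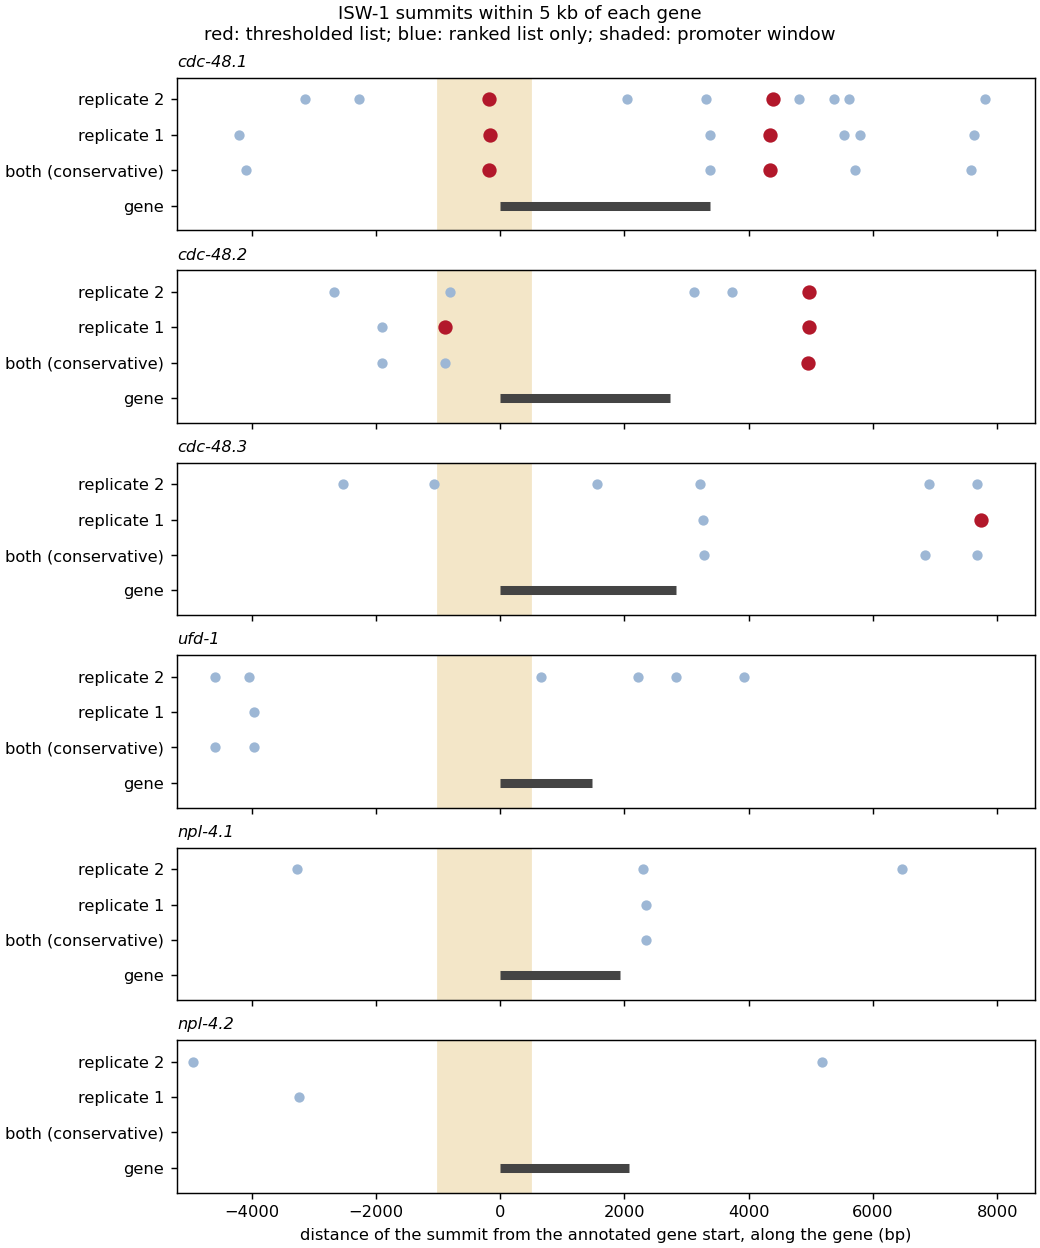
Position of ISW-1 summits from 5000 bp before to 5000 bp past each of the 6 genes, as distance in bp from the gene start along the gene, with the conservative lists derived from both replicates and each replicate's own lists in separate rows. Red points are thresholded peaks, blue points are peaks of the ranked lists alone, the dark bar is the gene and the shaded band is the promoter window. The summits of cdc-48.1 at 171, 157 and 172 bp upstream are the only ones that are thresholded in all 3 rows of any window.

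The first member, cdc-48.1 (WBGene00007352, II:10560036-10563407, minus strand), encodes 1 of the 2 closely related CDC-48 ATPases. Its promoter peak spanned II:10563421-10563732 in the conservative list, 312 bp of intergenic sequence between cdc-48.1 and C06A1.6, and its summit was 171 bp upstream of the gene start. The signal was 1868 in the conservative list, with rank 5 of 2143. It was 1192 in replicate 1's own list, rank 5 of 2090, and 685.2 in replicate 2's own list, rank 6 of 1756. The peak was thus within the 6 highest of each replicate's thresholded list. Against the median of its own list the signal was 9.53 times as high in replicate 1 and 8.43 times in replicate 2, and it reached 73.5% and 68.5% of the highest signal of those lists. In the conservative list these figures were 9.87 times and 71.2%. Its global IDR was 1e-05 in all 4 ranked lists, the lowest value that these lists give.

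The replicates placed the peak in nearly the same position. The interval of replicate 2, II:10563451-10563704, lay wholly within that of replicate 1, II:10563425-10563723, so that they shared 254 bp. The summits were 157 bp upstream in replicate 1 and 172 bp upstream in replicate 2, which is an offset of 15 bp. Over the 1561 peaks of replicate 1 that overlapped a peak of replicate 2 the median offset was 14 bp, and 52.8% of them had an offset no larger than that of cdc-48.1. Of the 10 highest peaks of each replicate, 8 were shared. The offset at cdc-48.1 was therefore close to that of a typical shared peak.

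**Figure D2:**
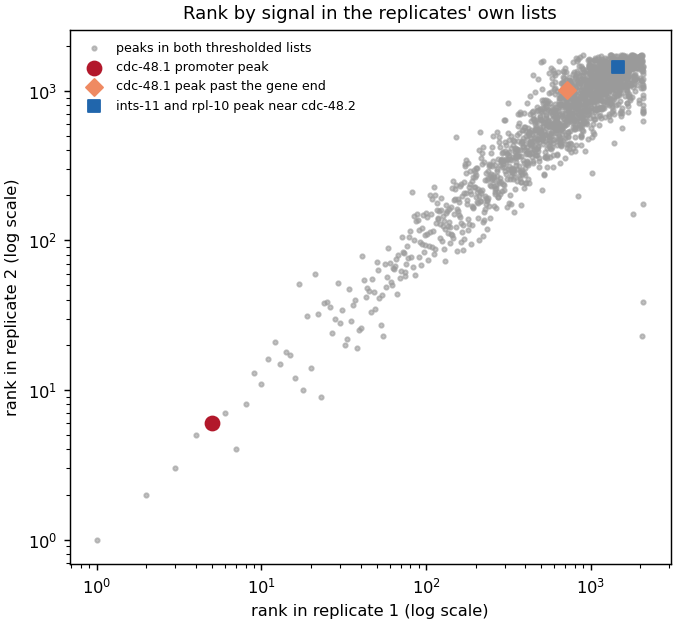
Rank by signal in replicate 1 against rank by signal in replicate 2, both on log scales, for the 1561 peaks of replicate 1 that overlap a peak of replicate 2 in the thresholded lists (grey). The cdc-48.1 promoter peak (red) has rank 5 and 6, whereas the peak past the end of cdc-48.1 (orange diamond) has rank 722 and 1005 and the ints-11 and rpl-10 peak near cdc-48.2 (blue square) has rank 1466 and 1439.

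The sequence under the cdc-48.1 peak was low in GC for an ISW-1 peak. Within 100 bp of its summit the GC content was 32.8%, against 43.95 ± 7.36% (SD) over all 2143 summits of the conservative list, of which 122 (5.69%) had a lower value. The other 9 of the 10 highest peaks had 36.3 to 54.7%. The 300 bases before the gene start had 31.0% GC, against 33.9 ± 5.54% (SD) over all 19973 genes, so the value was near the usual one for a worm promoter. The 300 bases had 36% GC for cdc-48.2, 30.7% for cdc-48.3, 32.3% for ufd-1 and 32.0% for each npl-4 gene. The cdc-48.1 peak, with 312 bp, was also the narrowest of the 10 highest, which ran to 409 bp.

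Of 8 short sequences searched on both strands of the 300 bases before each gene start, TATAAA occurred at 2 places in cdc-48.1, beginning 206 and 52 bp upstream of the start. The first of them lay 32.5 bp from the summit, centre to centre. GAANNTTC, the core repeat of heat shock elements, occurred once in cdc-48.3. None of the 6 stretches held TGCGTCTC, GAGAGAGA, GCGCGAAA or TGACGTG, nor did they hold TGACNNNGC or the short GC-rich sequence GGGCGG. Of the promoters of all genes, 39.6% held TATAAA, 18.97% GAANNTTC, 3.49% TGCGTCTC, 3.69% GAGAGAGA, 1.29% GCGCGAAA, 7.93% GGGCGG, 2.82% TGACGTG and 4.72% TGACNNNGC. Within 100 bp of conservative summits the shares were 13.0% for TATAAA, 9.75% for GAANNTTC, 16.4% for TGCGTCTC, 12.6% for GAGAGAGA, 3.55% for GCGCGAAA, 10.4% for GGGCGG, 3.27% for TGACGTG and 4.53% for TGACNNNGC. At least 1 of TGCGTCTC, GAGAGAGA, GCGCGAAA and GGGCGG occurred at 35.3% of all conservative summits (756 of 2143) and at 2 of the 10 highest, and the cdc-48.1 summit held none of them. The stretches around summits are shorter than the 300 bases of the promoters, so the shares of promoters and summits are not directly comparable. No sequence of the 8 contains another, and all matches are matches of letters alone.

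The last bases before the gene start read AG in cdc-48.1, cdc-48.2, cdc-48.3 and ufd-1, 4 of the 6 genes, and in 27.6% of all genes (5510 of 19973). Many worm messenger RNAs receive a spliced leader at an AG, so an annotated start can lie downstream of the place where transcription begins. Distances from the start are therefore distances from the annotation.

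The same summit fell in the window of 1 other gene, the small nucleolar RNA gene C06A1.9, which starts inside cdc-48.1 on the same strand. The summit was 514 bp upstream of C06A1.9, against 171 bp upstream of cdc-48.1. C06A1.6, the neighbour in front of cdc-48.1, reads in the same direction and its nearer end is 704 bp from the cdc-48.1 start. It was bound in none of the 4 thresholded lists, and nor was mnk-1, which encodes a protein kinase and begins 4991 bp past the end of cdc-48.1.

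A second, lower peak lay past the other end of cdc-48.1, and both replicates held it. In the conservative list it spanned II:10558960-10559114, 155 bp of intergenic sequence, with its summit 967 bp past the gene end. Its signal was 217.2, with rank 921 of 2143 and a global IDR of 2.74e-05. In the replicates' own lists it had 168.1 (rank 722 of 2090) and 73.4 (rank 1005 of 1756), with summits 45 bp apart. Against the list medians, 125.0 in replicate 1 and 81.3 in replicate 2, the peak was above in replicate 1 and below in replicate 2. The whole peak is shown on the plus strand because it differs from the promoter peak in base content, with 55.5% GC and no match to any of the 8 short sequences.
peak past the end of cdc-48.1: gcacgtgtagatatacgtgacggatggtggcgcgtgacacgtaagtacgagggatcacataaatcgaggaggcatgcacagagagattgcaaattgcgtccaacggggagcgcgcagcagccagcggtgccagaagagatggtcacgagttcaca
A weaker peak 9 bp past the gene end, with signal 71.3 and global IDR 0.0463, stood in the conservative ranked list but did not reach the threshold of 0.01.

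The paralog cdc-48.2 (WBGene00008053, II:8138496-8141230, plus strand) encodes the other of this pair. CDC-48.1 and CDC-48.2 had 720 identical residues of 802 aligned (89.8%). Likeness of the DNA around the starts was measured by the longest shared run of bases alone. This run was 12 bp for their windows and 10 bp for the 300 bases before the starts. For their coding sequences it was 35 bp. CDC-48.3 had 35.2% identical aligned residues with CDC-48.1 and 33.1% with CDC-48.2.

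At cdc-48.2 the window held a low peak far from the start. In the conservative ranked list it spanned II:8137419-8137794 with its summit 889 bp upstream, signal 86.9, rank 2372 of 11648 and global IDR 0.497. In the other ranked list the same peak had a global IDR of 0.0710. In replicate 1 the summit was 891 bp upstream with signal 66.9, rank 2051 of 18612 in the ranked list and global IDR 0.00357, just inside the threshold of 0.01. It was rank 1888 of 2090 in that replicate's thresholded list, and its signal was 0.535 times the list median. In replicate 2 the summit was 805 bp upstream with signal 21.7, rank 7584 of 31134 and global IDR 0.857. The replicates' peaks shared 239 bp and their summits were 86 bp apart, against a median of 55 bp over the 8484 pairs of the ranked lists. The peak was therefore called in 1 replicate alone and did not repeat at the threshold.

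The same summit was 689 bp upstream of ctns-1, which encodes cystinosin, a lysosomal cystine transporter, and which runs away from cdc-48.2. The starts of both genes are separated by 1577 bp, and the summit was nearer to ctns-1 than to cdc-48.2 in every list. The 201 bases around this summit (II:8137507-8137707, plus strand) are shown beside those of cdc-48.1 as the place of the call that rests on 1 replicate. They have 36.3% GC, and the capitals mark TATAAA read on the minus strand.
weak peak upstream of cdc-48.2: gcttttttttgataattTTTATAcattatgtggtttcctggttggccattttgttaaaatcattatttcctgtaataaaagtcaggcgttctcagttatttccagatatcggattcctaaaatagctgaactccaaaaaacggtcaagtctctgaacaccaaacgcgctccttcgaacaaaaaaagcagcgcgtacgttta
The nearest conservative thresholded summit to the start of cdc-48.2 was 4958 bp downstream, beyond its end. It lay 24 bp inside ints-11, which encodes the endonuclease subunit of the Integrator complex and whose end overlaps that of cdc-48.2 by 22 bp, and 427 bp from the start of rpl-10. Its signal was 137.6 (rank 1525 of 2143), with 91.1 in replicate 1 and 52.9 in replicate 2, and the summits of the replicates were 1 bp apart.

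**Figure D3:**
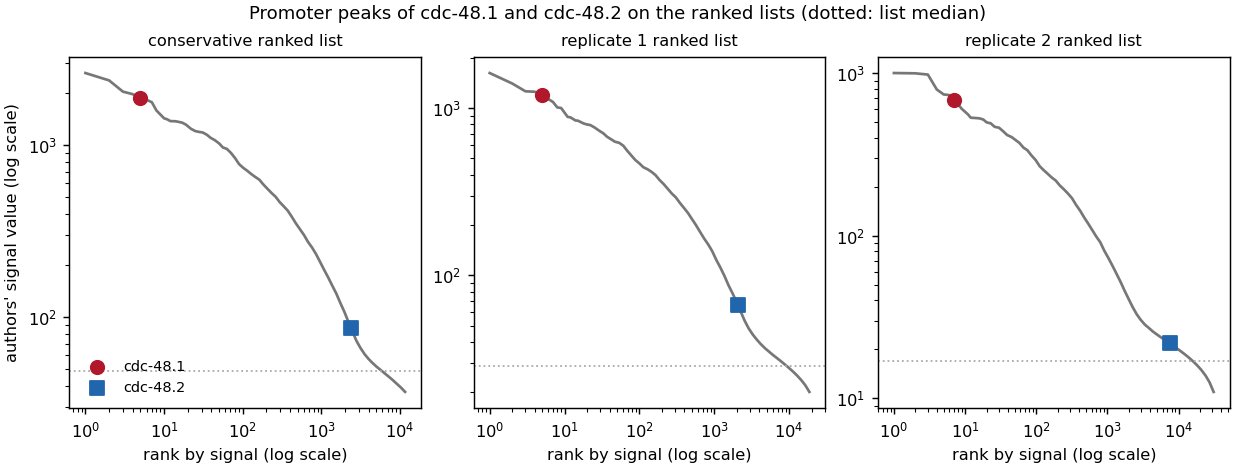
Signal value given by the authors against rank by signal, both on log scales, for the ranked lists of both replicates (conservative), replicate 1 and replicate 2. The cdc-48.1 promoter peak (red circle) has rank 5, 5 and 7, the cdc-48.2 peak (blue square) has rank 2372, 2051 and 7584, and the dotted line is the median of each list.

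Set side by side, the promoter signal of cdc-48.1 was 1868 and that of cdc-48.2 was 86.9 in the conservative ranked list. In replicate 1 the values were 1192 for cdc-48.1 and 66.9 for cdc-48.2, and in replicate 2 they were 685.2 for cdc-48.1 and 21.7 for cdc-48.2. The order was the same in both replicates. Since cdc-48.1 was chosen for its signal, the difference is a description, and no test was made. All 36-base words of the cdc-48.2 window occurred once in the genome, and those of the cdc-48.1 window did except 109 words that lay 832 to 1000 bp upstream, which left 92.6% unique.

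The third relative, cdc-48.3 (WBGene00010562, I:8032863-8035696, minus strand), had no window summit in any list. Its start faces that of K04G2.4 across 101 bp. The nearest summit of the ranked lists lay just outside the window, 1058 bp upstream in a coding exon of K04G2.4, in replicate 2 alone, with signal 13.1, rank 25717 of 31134 and global IDR 0.643. A further peak inside a coding exon of cdc-48.3, 1557 bp from the start, was also in replicate 2 alone (signal 20.8, global IDR 0.806). The nearest conservative thresholded summit was 10962 bp downstream, and in replicate 1's own list the nearest was 7735 bp downstream in an intron of eif-2beta (signal 61.4, rank 1974 of 2090). All 36-base words of its window were unique. Neither K04G2.4 nor aho-3, whose end overlaps that of cdc-48.3 by 18 bp, was bound in any list.

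Among the cofactors, ufd-1 (WBGene00006733, IV:12329408-12330890, minus strand) encodes the UFD1 subunit of the pair that brings ubiquitinated proteins to CDC-48. It had no window summit, and all of its 36-base words were unique. A peak of replicate 2's ranked list lay in an intron of ufd-1 651 bp from the start, just outside the window, with signal 22.4, rank 6844 of 31134 and global IDR 0.814. In replicate 1's ranked list and in the conservative one the nearest summits were 3959 and 3961 bp upstream, in an intron of F19B6.1, with signals of 32.7 and 41.96. The nearest conservative thresholded summit was 41187 bp upstream, the farthest among the 6 genes. Neither F19B6.1 nor F19B6.3 was bound in a thresholded list.

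The NPL4 genes are npl-4.1 (WBGene00019120, II:5631351-5633284, plus strand) and npl-4.2 (WBGene00019121, II:5622889-5624959, plus strand). They lie on the same chromosome and encode proteins of 529 residues with 524 identical (99.1%). Both stand in copies of a block of 2949 bp, II:5630026-5632974 for npl-4.1 and II:5621564-5624512 for npl-4.2, which differ at 2 bases (99.93% identical). The block runs from 1325 bp upstream to 1623 bp downstream of each start, and 5513 bp separate the copies. Neither copy held a summit of any of the 8 lists.

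Of the 36-base words in each npl-4 window, 36 of 1465 (2.46%) occurred once in the genome. With 50-base words the share was 3.45% and with 100-base words 7.14%. Only 1.06% of all genes had a share as low or lower. Of the 243 genes with under 10% unique words, 0 were bound in the conservative list. Taking 3 genes as the most that a count of 0 allows gives a limit of 1.23%. That limit treats the genes as independent, which copies of one another are not. Of genes with 10% to under 90%, 7.10% were bound (171 of 2407), and of those with 90% or more, 10.5% (1826 of 17323). How reads with several matches were treated is not given in the sources used here. Whether the windows of npl-4.1 and npl-4.2 lacked binding or lacked placeable reads was not tested, and the lists cannot tell these apart.

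**Figure D4:**
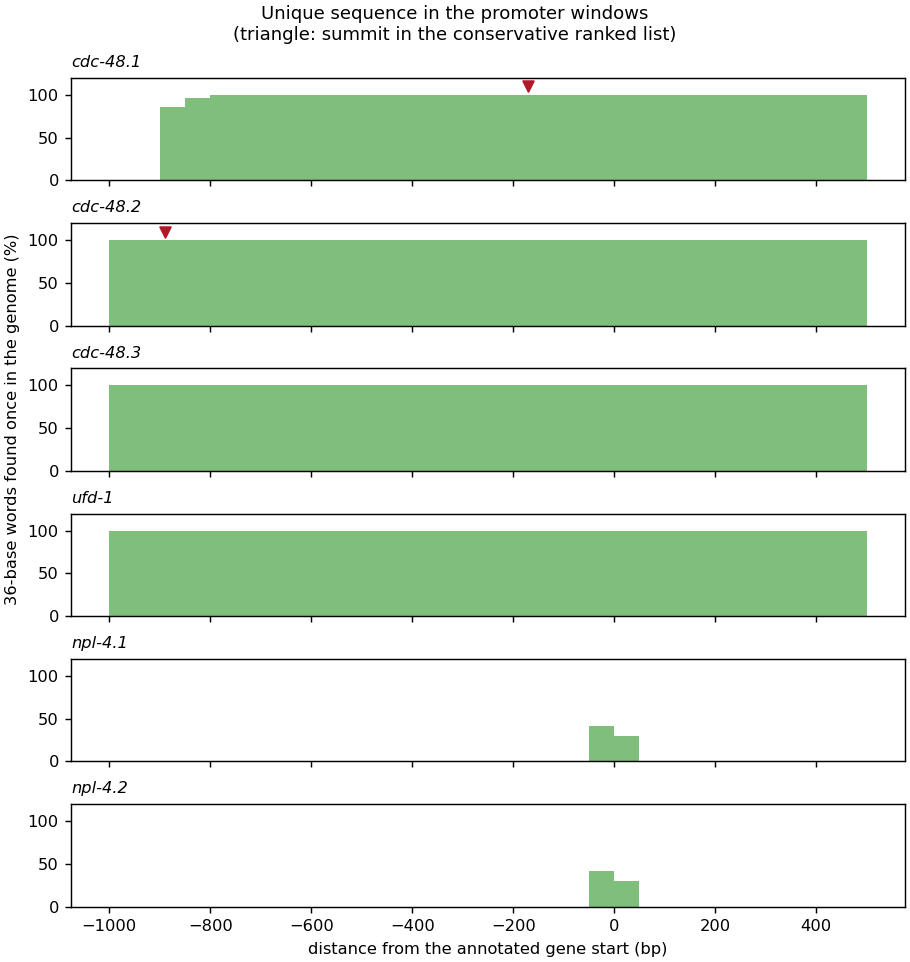
Share of 36-base words that occur once in the genome (%), in steps of 50 bp across the promoter window of each of the 6 genes, against distance from the gene start in bp. The triangles mark the cdc-48.1 and cdc-48.2 summits of the conservative ranked list, both at 100% unique words, and the npl-4 windows have unique words next to the start alone, 2.46% of the window.

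Outside the duplicated block, ranked lists held low peaks near npl-4.1. The nearest was 417 bp past its end and 2350 bp from the start in the conservative ranked list, with signal 49.5 and global IDR 0.609. Replicate 1 had 41.8 there and replicate 2 had 13.7, and neither passed the threshold. Around npl-4.2 the summit nearest to the start was 3233 bp upstream in an untranslated exon of eif-3.L, in replicate 1 alone (signal 22.2, global IDR 0.864). The gene eif-3.L encodes a translation initiation factor subunit. The nearest conservative thresholded summits were 18288 bp downstream of the npl-4.1 start and 23173 bp upstream of the npl-4.2 start. The neighbours F59E12.6, F59E12.8, eif-3.L and F59E12.15 were bound in no thresholded list. F59E12.6 and eif-3.L run away from npl-4.1 and npl-4.2, with gaps of 399 and 405 bp, so their windows lie inside the duplicated block. Whether these windows lacked binding or lacked placeable reads was likewise not tested. Of the 12 genes next to the 6, ints-11 was bound in all 4 thresholded lists and ctns-1 in replicate 1's list alone.

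The genes with the signal pattern most like that of cdc-48.1 were found by the Euclidean distance of log2 signal over the 4 thresholded lists, among 1550 genes bound in all 4. The lists share reads, so the distance describes height and no more. The closest was mog-4, which encodes an RNA helicase known from the germline, at a distance of 0.157, with signals of 1776 in the conservative list, 1137 in replicate 1 and 641.1 in replicate 2. Next were rpl-35, a large ribosomal subunit gene, at 0.167 (1977, 1254 and 732.5), and tasp-1, a protease gene of the taspase type, with K01G5.10 at the same summit, at 0.175 (1832, 1089 and 739.2). The fifth was Y17G9B.5 at 0.292 (2046, 1261 and 792.9), whose summit also counts for rpl-20.

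Some other genes of the CDC-48 pathway also had promoter peaks. A list of 24 CDC-48 adaptors, ubiquitin chain factors and genes of degradation from the endoplasmic reticulum had 11 bound (45.8%) in the conservative list, against 10% of all genes. The count was 9 (37.5%) in the other thresholded list, 7 (29.2%) in replicate 1's own list and 8 (33.3%) in replicate 2's. The median signal of the 11 was 148.5, against 231.6 over all 1997 bound genes, and the highest was 624.2, against 1868 for cdc-48.1.

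The 6 highest of the list held an ubiquilin, adaptors and ubiquitin itself. The ubiquilin gene ubql-1, whose product carries ubiquitinated proteins to the proteasome, had signals of 624.2 in the conservative list, 410.2 in replicate 1 and 218.3 in replicate 2. The ubql-1 summit also counted for another gene. The UBX adaptor gene ubxn-2 had 482.6, 257.9 and 224.3 in the same lists. The ubiquitin gene ubq-2, fused to a ribosomal protein, had 444.8, 286.8 and 152.5. The gene ufd-3, whose product binds CDC-48 and ubiquitin, had 416.4, 263.2 and 144.7, and ubxn-1 had 189.8, 116.5 and 77.0. For these 5 genes the peak was in each thresholded list. The shuttle factor gene rad-23 had 148.5 in the conservative list and 113.4 in replicate 1 and was not bound in replicate 2. With a summit counted only for the nearest start the list had 6 bound genes, against 6.999% of all genes (1398 of 19973) under the same rule, and ubq-2, ubxn-1 and rad-23 were not among them, since their summits were nearer to the start of another gene. The E4 ligase gene ufd-2 was also bound in each thresholded list, with 118.2 in the conservative one.

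Of the 22 other AAA ATPase genes that could be matched, 13 (59.1%) were bound in the conservative list, against 10% of all genes. The other thresholded list and replicate 1's own list each had 14 (63.6%), and there were 11 (50%) in replicate 2's. The highest was atad-3, a gene for an ATPase of the mitochondrial membrane, with signals of 865.9 in the conservative list, 512.8 in replicate 1 and 343.8 in replicate 2. The genes ruvb-2, for a helicase-like subunit of chromatin complexes, and nsf-1, for the ATPase that takes SNARE complexes apart, had 448.0 and 438.2 in the conservative list. The ESCRT disassembly gene vps-4 had 424.5, the spastin gene spas-1 had 391.8, and rpt-2, a subunit of the proteasome's ATPase ring, had 336.5. These 6 were bound in each thresholded list. The summits of atad-3, nsf-1 and rpt-2 each counted for another gene as well. With a summit counted only for the nearest start, 12 of the 22 were bound, these 6 among them, against 6.999% of all genes. Of the 6 ring subunit genes, rpt-1, rpt-2, rpt-3 and rpt-6 were bound in all 4 thresholded lists and rpt-4 and rpt-5 in none. At rpt-6 the highest summit of the window was 237 bp upstream in replicate 1 and 771 bp upstream in replicate 2. Each of these peaks overlapped a thresholded peak of the other replicate, so the replicates differed in which peak was higher. The median of the 13 was 191.6, against 231.6 over all bound genes.

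**Figure D5:**
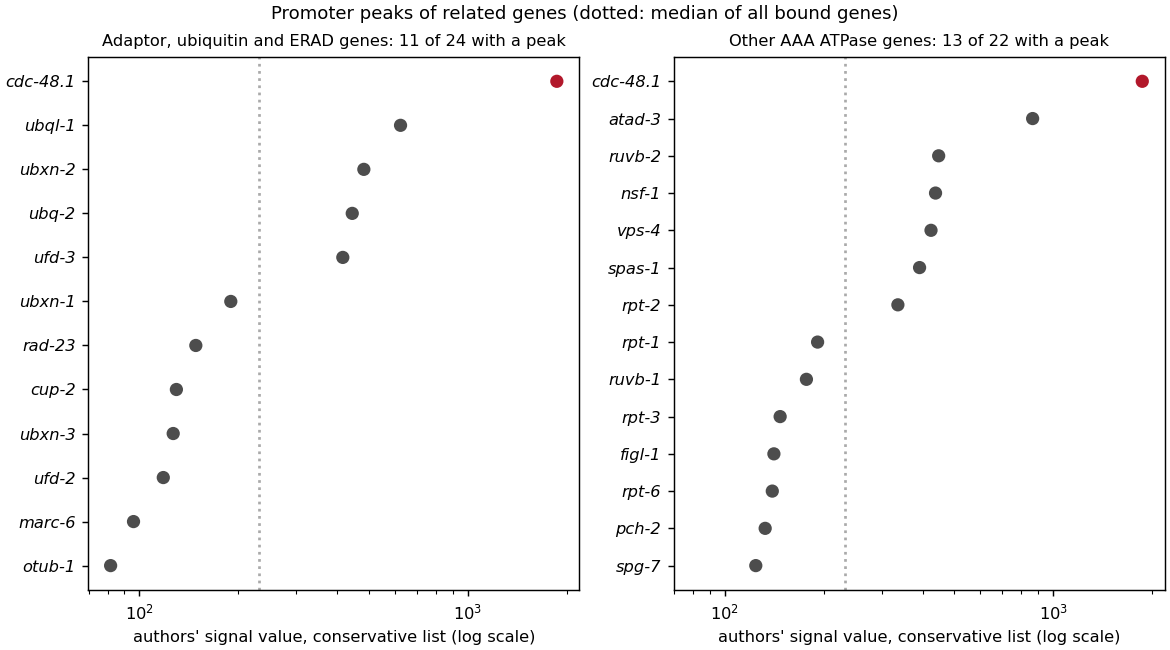
Signal given by the authors in the conservative list (log scale) for the bound genes of the list of CDC-48 adaptors, ubiquitin factors and degradation genes (left, 11 of 24) and of the other AAA ATPase genes (right, 13 of 22), with cdc-48.1 in red. The dotted line is the median of all bound genes, 231.6, and the highest of the other genes, atad-3, has 865.9 against 1868 for cdc-48.1.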

How the data were processed

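Per the labels and the notes deposited with the samples, peaks were made by the authors on ce11 alignments, ranked by IDR and thresholded, from both replicates for the series' lists and from 1 replicate for each sample's. Which aligner, caller and control they ran is not given in the sources used here. From the column layout, the deposited lists hold a score of at most 1000 set by the authors, the signal value that ranked peaks here, and, in the deposited ranked lists, the −log10 of the global IDR, of at most 5. A further 16 columns of values per sample in the series' ranked lists were not used.

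The conservative list was the main set. On the files, all its peaks stood in 1 ranked list with a global IDR of at most 0.01. Starts came from Ensembl release 115 for WBcel235, whose chromosomes are those of ce11. Overlap needed at least 1 bp. Proteins were translated from the annotated coding sequence and aligned with Biopython 1.88. Words were compared with the whole genome on both strands. Python 3.11.15, pandas 2.3.3 and numpy 2.4.6 were used, and the assignment of summits was tested on simulated data.

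The members and gene lists were chosen with earlier results of these data known, so no test was made. The text names the 6 members, genes sharing their summits, both neighbours of each, the 6 highest bound genes of each list and the 5 genes most like cdc-48.1. rpl-10, eif-2beta, rpl-20, ufd-2, rpt-1, rpt-3, rpt-4, rpt-5 and rpt-6 were chosen after their values were seen. Of 23 listed AAA ATPase symbols, 22 matched a gene. No spread between replicates was computed, since each list has its own scale.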

Additional observations from a re-analysis of the deposited data

How the results depend on the processing

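Without replicate 1 or replicate 2, that is in the other replicate's own list, the count of bound members ran from 1 to 2, the rank of cdc-48.1 from 5 to 6, the pathway count from 7 to 8 and the AAA ATPase count from 11 to 14. In the ranked list of the conservative list 2 members were bound, and in the ranked lists 2 members were shared by the replicates, in place of 1. Both changes are the weak cdc-48.2 peak. Among conservative peaks above the median signal the pathway count was 5, in place of 11, and the AAA ATPase count was 7, in place of 13, while the share of all genes bound was 6.02%, in place of 10%. The pathway count was 6 in the narrow window of 500 bp upstream to 200 bp downstream, where 8.06% of all genes were bound, and 6 with the nearest start alone, where 6.999% were. The settings of signal above the median, narrow window and nearest start keep fewer peaks or a narrower rule. The AAA ATPase count was 11 in the narrow window and 12 with the nearest start alone. Why the pathway count fell further in them was not tested. The share of unique words in the npl-4 windows, 2.46%, was 3.45% with 50-base words and 7.14% with 100-base words. cdc-48.1 was bound in every setting tried, and cdc-48.3, ufd-1, npl-4.1 and npl-4.2 in none.

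No paired analysis was possible because the labels give 1 condition and no result comes from a test. Depth is unknown, so an absent peak is a peak not called at this depth. For npl-4.1 and npl-4.2 the lists also cannot tell absent binding from a lack of placeable reads.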
